A study of Mus musculus with 24 samples.

Results

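Hepatic expression of the glutathione, glucuronide and sulfate transferases was compared between Ogg1-/- and wild-type (WT) mice on a high-fat diet (HFD) and on chow. The genes were chosen by symbol alone. They were cytosolic glutathione transferases (Gst, classes alpha, kappa, mu, omega, pi, theta and zeta) and microsomal glutathione transferases (Mgst). The rule also took UDP-glucuronosyltransferases (Ugt1 and Ugt2), the related Ugt3 genes, counted here in the glucuronide class, and sulfotransferases (Sult). A total of 48 of 19938 genes with a probe set of their own met this rule, 22 acting with glutathione, 10 of the glucuronide class and 16 of the sulfate class. Each gene was represented by the probe set with the highest mean signal over the 24 arrays. No single-gene probe set of the Ugt1 family was found, because that locus is covered by a probe set naming 8 genes.

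Livers came from male C57BL6 mice (the methods name the substrain C57BL/6J), with 1 array per mouse and 6 mice in each of 4 groups: Ogg1-/- mice on the HFD, WT mice on the HFD, Ogg1-/- mice on chow and WT mice on chow. Ogg1 encodes the DNA glycosylase that removes 8-oxoguanine from DNA, and the Ogg1-/- mice lack it in every tissue. The sample labels give 10 weeks of feeding and an age of 10 weeks at its start, whereas the methods give an older age. Expression was measured on an Affymetrix Mouse Gene ST array, on which the signal of each probe set is a log2 value, so that a difference of 1 is a 2-fold change. All differences below are Ogg1-/- minus WT, or HFD minus chow, and a gene passed when its limma p, adjusted over all 35556 probe sets (Benjamini-Hochberg), was under 0.05.

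These enzymes carry out the conjugation phase of detoxification. Glutathione transferases attach glutathione to electrophiles, including the products of lipid peroxidation; UDP-glucuronosyltransferases attach glucuronic acid to steroids, bile acids, bilirubin and drugs; and sulfotransferases move a sulfate group from the donor PAPS to phenols, steroids and bile acids. The liver is the main site of all 3 reactions, and hepatocytes express most of the genes.

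The labels were checked against the Ogg1 probe set. The Ogg1 probe set ran from 5.70 to 6.03 in Ogg1-/- livers and from 6.34 to 6.57 in WT livers on the HFD, a difference of -0.59 (SE 0.07, limma adjusted p = 2.89e-05), and had a median of 5.94 in Ogg1-/- livers and of 6.51 in WT livers on chow, a difference of -0.54 (SE 0.07, limma adjusted p = 3.22e-05). No Ogg1-/- liver overlapped a WT liver on either diet. Array medians differed by less than 0.1, and correlations between arrays ran from 0.952 to 0.993. Ogg1-/- chow replicate 1 stood apart from the other 5 livers of its group and alone made up 59.2% of the leading within-group axis on chow, a principal component of the differences among mice of the same chow group. It widened the spread of several members (the SE of Ugt2b34 was 0.25 with it and 0.12 without it). Counts of members that passed, and the values of some genes, are therefore given with and without it. On that axis all 6 Ogg1-/- livers on the HFD (scores of 18.5 to 54.8) lay above all 6 WT livers on the HFD (-20.7 to 10.4). Ogg1-/- chow replicate 1 scored 80.9, at the same end as the Ogg1-/- HFD livers, and the other 5 livers of its group scored -42.1 to 7.74. Leaving it out therefore also moves the Ogg1-/- chow mean, and with it the diet differences in Ogg1-/- livers, the chow genotype differences and the interactions. All 6 WT chow livers and 1 WT HFD liver carried a different ending in their sample description, of unknown meaning, so that on chow this ending and the genotype cannot be told apart.

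Of the 48 genes, 13 were dim, meaning that no group mean exceeded 5.93, the median over all probe sets. Of these, 10 were sulfotransferases, and no UDP-glucuronosyltransferase was dim.

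The UDP-glucuronosyltransferase genes of the Ugt2 family lie side by side on chromosome 5, in the order Ugt2b34, Ugt2b1, Ugt2b35, Ugt2b36, Ugt2b5, Ugt2b37, Ugt2a3 and Ugt2b38 for the members measured here. Within the family the first 3 genes of this row had the largest diet differences in Ogg1-/- livers. They also had the largest genotype differences on the HFD. All 3 passed between the diets in Ogg1-/- livers, but only Ugt2b34 passed between the genotypes on the HFD. The next gene, Ugt2b36, was at 0.05 between the diets and at 0.16 between the genotypes and passed in neither comparison. Nor did Ugt2b5, Ugt2a3 and Ugt2b38 pass in either. The promoters of Ugt2b34, Ugt2b1, Ugt2b35 and Ugt2b36 are shown because these neighbours differed in their diet response in the same Ogg1-/- livers. Each sequence is from RefSeq (GRCm38.p6), runs 5′ to 3′ along the gene from 250 bases before its start to 50 bases after it, and has in capitals the stretch that the 4 share most closely. It was found by setting each run of 12 bases in the Ugt2b34 promoter against its nearest match in each of the other 3, with N where letters differed, and reads TTANANNTTAAC, with 9 shared letters. The positions are chr5:86906888-86907187 (minus strand) for Ugt2b34, chr5:86926454-86926753 (minus strand) for Ugt2b1, chr5:87000610-87000909 (plus strand) for Ugt2b35 and chr5:87092506-87092805 (minus strand) for Ugt2b36.
Ugt2b34: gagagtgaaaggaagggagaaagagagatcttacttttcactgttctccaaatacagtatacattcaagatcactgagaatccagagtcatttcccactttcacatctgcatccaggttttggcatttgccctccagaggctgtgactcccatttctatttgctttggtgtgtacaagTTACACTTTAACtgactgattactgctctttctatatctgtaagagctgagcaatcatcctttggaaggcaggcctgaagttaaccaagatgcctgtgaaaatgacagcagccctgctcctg
Ugt2b1: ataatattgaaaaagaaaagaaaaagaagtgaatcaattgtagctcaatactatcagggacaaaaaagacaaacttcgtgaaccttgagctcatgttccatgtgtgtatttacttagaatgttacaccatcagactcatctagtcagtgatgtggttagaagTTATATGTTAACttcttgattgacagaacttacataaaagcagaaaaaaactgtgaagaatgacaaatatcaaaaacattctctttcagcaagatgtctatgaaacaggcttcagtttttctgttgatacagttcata
Ugt2b35: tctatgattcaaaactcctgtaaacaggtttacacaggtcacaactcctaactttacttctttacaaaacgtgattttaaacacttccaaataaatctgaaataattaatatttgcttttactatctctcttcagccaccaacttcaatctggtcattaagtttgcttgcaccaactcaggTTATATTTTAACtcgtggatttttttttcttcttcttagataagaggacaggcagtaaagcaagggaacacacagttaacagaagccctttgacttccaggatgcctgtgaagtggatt
Ugt2b36: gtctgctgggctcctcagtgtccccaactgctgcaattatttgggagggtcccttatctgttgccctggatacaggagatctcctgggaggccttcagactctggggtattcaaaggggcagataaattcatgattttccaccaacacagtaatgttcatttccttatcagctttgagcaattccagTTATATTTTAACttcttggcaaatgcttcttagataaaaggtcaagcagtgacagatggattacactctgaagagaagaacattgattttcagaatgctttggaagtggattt

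The capital letters began 72, 88, 69 and 63 bases before the start in these 4 genes. Ugt2b36 thus carried them as well as the genes that fell on the HFD in Ogg1-/- livers. Searched on both strands, the pattern stood in the promoters of 7 of the 8 Ugt2 genes, the exception being Ugt2a3, in that of 1 further member, Ugt3a1 on chromosome 15, and in 0.268% of 32817 promoters of the same length. The pattern was built from 4 of these genes, its length was set after their promoters had been read, and the Ugt2 genes arose from each other by duplication, so the matches are not independent. The antioxidant response element core TGACNNNGC (12.4% of all promoters), the STAT5 site TTCNNNGAA (8.29%) and the E-box CACGTG (7.15%) were not found in the windows of these 8 genes. A total of 44 of the 48 members had a promoter in the table.

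On the HFD, the first comparison the study was designed for, 7 of the 48 transferases (14.6%) passed between Ogg1-/- and WT livers, against 23.7% of all 19938 genes. Of the 7, 4 were higher in Ogg1-/- livers (11.9% of all genes were) and all 4 act with glutathione: Gsto1, Gstt2, Gstt3 and Mgst1. The 3 lower ones were Ugt2b34, Sult2a8 and Sult1a1 (11.8% of all genes were lower). The median difference over the 48 genes was 0.00, and that over all genes was 0.03. Only Ugt2b34 and Sult2a8 passed with a fold of at least 1.5, a rule that 6.12% of all genes met. Without Ogg1-/- chow replicate 1, 12 of the 48 passed, against 30.6% of all genes: these 7, Ugt2b1, Ugt2b35, Gstp3, Sult1c2 and Sult2b1.

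**Figure D1:**
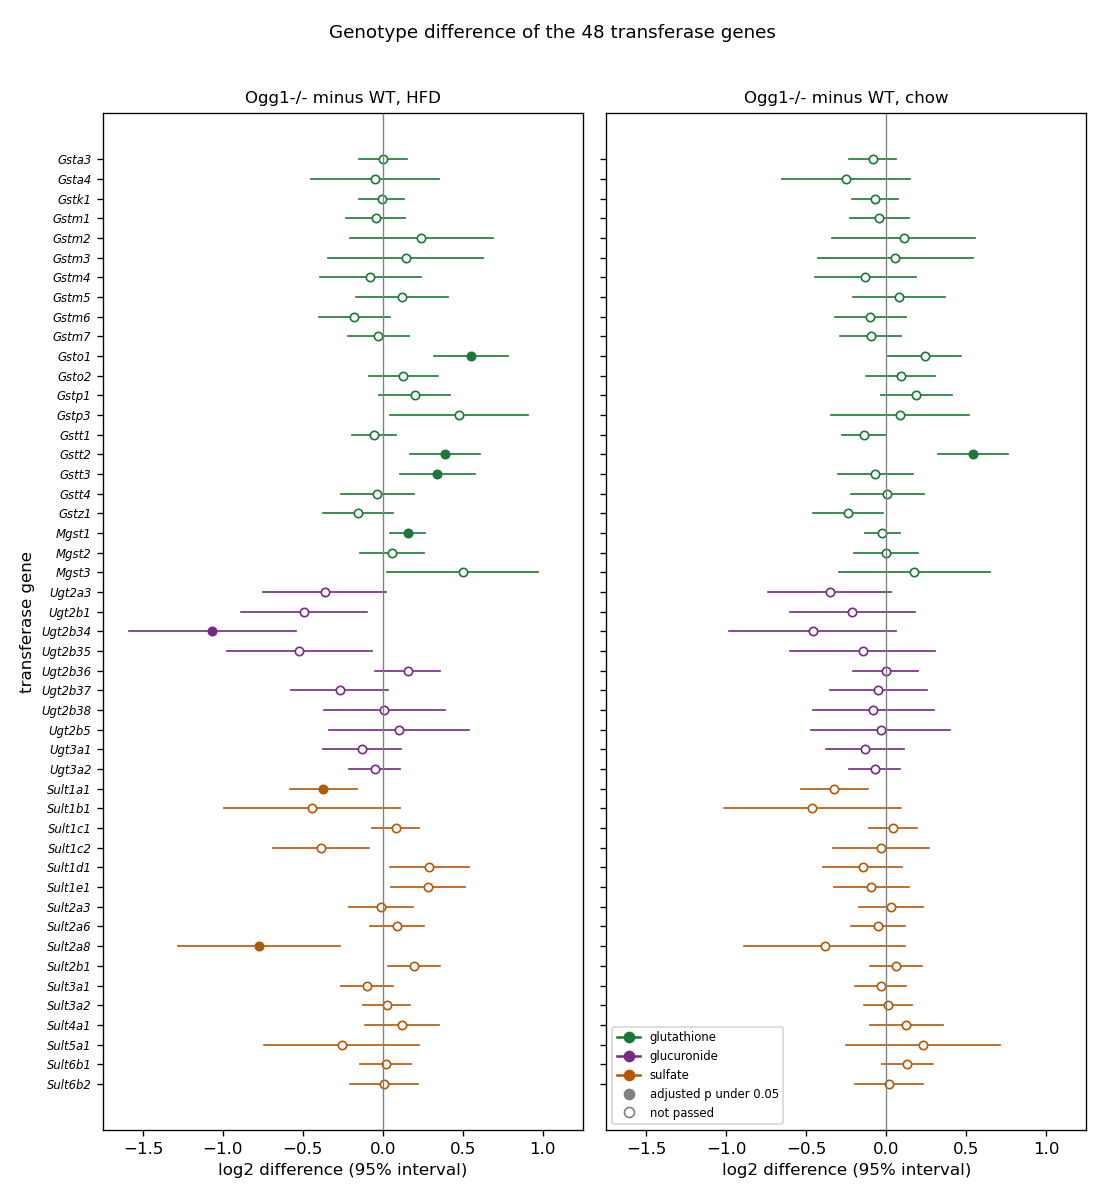
Log2 difference, Ogg1-/- minus WT, of each of the 48 transferase genes on the HFD (left) and on chow (right), with the 95% interval of the limma fit (6 livers per group). Filled points passed at an adjusted p under 0.05: 7 genes on the HFD, led by Ugt2b34 at -1.07, and Gstt2 alone on chow at 0.54.

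Among the glutathione enzymes, Gsto1 (probe set 10463836) gave the clearest rise. Gsto1 encodes the omega-class enzyme, which acts as a thioltransferase and reduces dehydroascorbate. Its signal ran from 10.40 through a median of 10.58 to 10.85 in Ogg1-/- livers on the HFD, against 9.76, 10.07 and 10.27 in WT livers. All 6 Ogg1-/- livers lay above all 6 WT livers, and 15.4% of all genes showed such a separation, in either direction. Among the 48 members 2 did (4.17%), Gsto1 and Ugt2b34. The difference was 0.55 (SE 0.11), a 1.46-fold rise with a limma adjusted p = 0.00305. On chow, Gsto1 ran from 10.31 through 10.48 to 10.84 in Ogg1-/- livers and from 9.95 through 10.29 to 10.57 in WT livers, and the groups overlapped (difference 0.24, limma adjusted p = 0.259). Its neighbour on chromosome 19, the dim gene Gsto2, differed by 0.13 on the HFD (limma adjusted p = 0.448).

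The theta-class genes lie together on chromosome 10 and encode enzymes known for conjugating small halogenated compounds. Gstt2 (probe set 10370013) was the only transferase that passed between the genotypes on both diets. On the HFD its signal was 8.83, 9.17 and 9.24 (lowest, median and highest) in Ogg1-/- livers, against 8.48, 8.68 and 9.07 in WT livers, a difference of 0.39 (SE 0.11, limma adjusted p = 0.013). Of the 6 Ogg1-/- livers, 4 lay above every WT liver. Without WT HFD replicates 2 and 3, the HFD difference was 0.31 (limma adjusted p = 0.0734). These livers had been doubted in earlier results of these data, but neither was marked in the check of single livers given below.

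Gstt3 lies in the same row of theta genes, with Gstt1 and Gstt4 between it and Gstt2. Its signal was 10.82, 11.06 and 11.36 in Ogg1-/- livers on the HFD, against 10.39, 10.75 and 11.14 in WT livers. The groups overlapped, with 2 Ogg1-/- livers above every WT liver, and the difference of 0.34 (SE 0.11) passed narrowly (limma adjusted p = 0.0361). It was 0.23 (limma adjusted p = 0.208) without the same 2 WT livers. Gstt1, the brightest theta-class probe set, differed by -0.06 (limma adjusted p = 0.627), so the theta genes did not move as one.

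Mgst1 encodes an abundant membrane-bound glutathione transferase with peroxidase activity. Its signal was 13.89, 13.92 and 13.95 in Ogg1-/- livers on the HFD, against 13.64, 13.79 and 13.91 in WT livers. The Ogg1-/- livers were tightly grouped, and 5 of the 6 lay above every WT liver. The difference was small, at 0.16 (SE 0.05), an 11.5% rise with a limma adjusted p = 0.0407, and it was 0.06 (limma adjusted p = 0.433) after quantile normalization between the arrays.

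The remaining 18 glutathione genes did not pass on the HFD, with differences from -0.18 (Gstm6) to 0.50 (Mgst3). Gsta3, an alpha-class enzyme known in the mouse for conjugating the epoxide of aflatoxin B1, ran from 13.15 to 13.35 in Ogg1-/- livers and from 13.15 to 13.41 in WT livers, a difference of 0.00 with a 95% interval of -0.15 to 0.15. Gstz1, which acts as maleylacetoacetate isomerase in tyrosine breakdown, differed by -0.15 (limma adjusted p = 0.351). All 7 mu-class genes, which form a row on chromosome 3, lay within the range given above and did not pass.

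**Figure D2:**
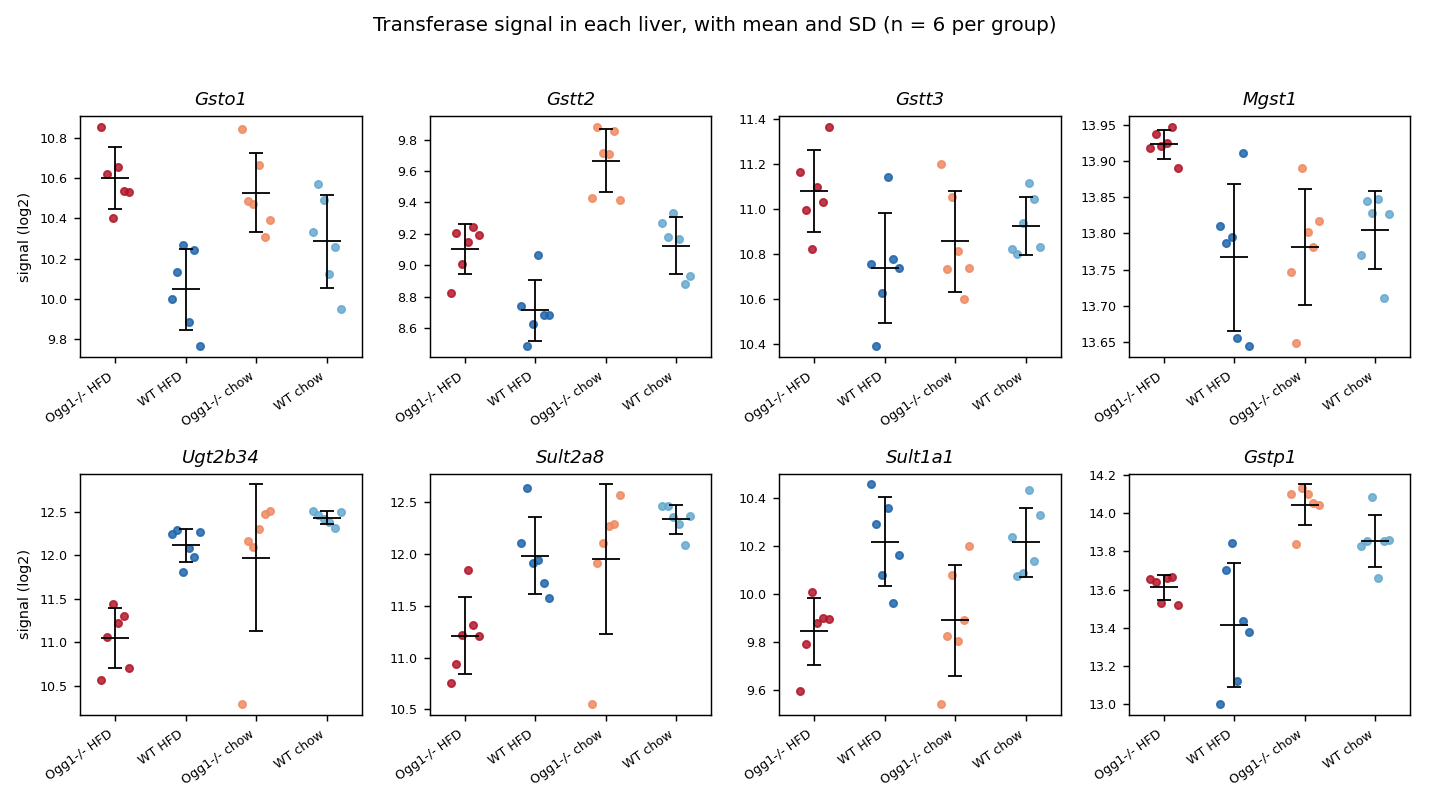
Signal (log2) of 8 transferase genes in each of the 24 livers, with the group mean and SD (n = 6 per group); the vertical scale differs between the genes. Gsto1 lies higher and Ugt2b34 lower in all 6 Ogg1-/- livers than in any WT liver on the HFD, and Ogg1-/- chow replicate 1 is the low point of its group at 10.29 for Ugt2b34 and 10.55 for Sult2a8.

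Among the glucuronosyltransferases, Ugt2b34 (probe set 10531034) differed most of all 48 genes. The UGT2B enzymes conjugate steroids, bile acids and many drugs. Ugt2b34 signal was 10.56, 11.14 and 11.44 in Ogg1-/- livers on the HFD, against 11.81, 12.17 and 12.29 in WT livers. Every Ogg1-/- liver lay below every WT liver, and the difference was -1.07 (SE 0.25), so that the signal fell by 52.3% (limma adjusted p = 0.0063). Without Ogg1-/- chow replicate 1, which does not enter this difference but widens the shared spread, the adjusted p was 1.74e-05.

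Its neighbours Ugt2b1 and Ugt2b35 were at -0.49 (SE 0.19, limma adjusted p = 0.0703) and -0.52 (SE 0.22, limma adjusted p = 0.0977) and did not pass with all 24 arrays. Both passed without Ogg1-/- chow replicate 1 (limma adjusted p = 0.00966 for Ugt2b1 and 0.0124 for Ugt2b35). Ugt2b36, the next gene along the chromosome, differed by 0.16 (limma adjusted p = 0.303). Of the 10 genes of the glucuronide class, 7 had a negative difference on the HFD. The 2 Ugt3 genes among them, whose products use other sugars, were at -0.13 for Ugt3a1 and -0.05 for Ugt3a2 and did not pass.

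Sult2a8 (probe set 10560131), a member of the hydroxysteroid and bile acid sulfotransferases, had 10.75, 11.21 and 11.85 in Ogg1-/- livers on the HFD, against 11.58, 11.93 and 12.64 in WT livers. Of the 6 Ogg1-/- livers, 5 lay below every WT liver. The difference was -0.77 (SE 0.24), so that the signal fell by 41.5% (limma adjusted p = 0.0285), and it was -0.63 (limma adjusted p = 0.115) without WT HFD replicates 2 and 3.

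Sult1a1 (probe set 10568001), the main phenol sulfotransferase, had 9.60, 9.89 and 10.01 in Ogg1-/- livers on the HFD, against 9.96, 10.23 and 10.45 in WT livers. Again 5 of 6 Ogg1-/- livers lay below every WT liver, with a difference of -0.37 (SE 0.10, limma adjusted p = 0.0135). A difference of similar size on chow, -0.32 (SE 0.10), did not pass (limma adjusted p = 0.141), where 4 of 6 Ogg1-/- livers lay below every WT liver. The other 14 sulfotransferases did not pass and ran from -0.44 (Sult1b1) to 0.29 (Sult1d1, which sulfates catecholamines, limma adjusted p = 0.0911).

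When the score of each array on the axis within the chow groups was added to the fit, 0 of the 48 genes passed on the HFD, and 2.94% of all genes did. Ugt2b34 was then at -0.39 (limma adjusted p = 0.102), Gsto1 at 0.37 (limma adjusted p = 0.0682) and Sult2a8 at -0.16 (limma adjusted p = 0.643). As the genotypes do not overlap on this axis on the HFD, their parts in these differences cannot be told apart.

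Livers hold cell types besides hepatocytes, and in bulk tissue fewer cells of a type and less RNA per cell cannot be told apart. On the HFD, 0 of 6 hepatocyte markers passed, and their summed linear signal ran from 79300 to 84600 in Ogg1-/- livers and from 79700 to 87400 in WT livers. Of 7 sinusoidal endothelial markers, 5 fell, and their summed signal, 3670 to 4320 in Ogg1-/- livers and 5150 to 5780 in WT livers, did not overlap. Over all genes, 11.8% fell, 23.7% passed in either direction and 15.4% had groups that did not overlap. Of 7 stellate cell markers, 2 fell (Lrat by 0.96 and Dcn by 0.85 on the log2 scale), and Des, Ngfr and Col1a1 were at 0.17, 0.11 and 0.11 and did not pass. Their sums were 3420 to 5550 in Ogg1-/- livers and 5730 to 7550 in WT livers. Without Dcn, the brightest of them, the sums overlapped, at 1330 to 1640 in Ogg1-/- livers and 1480 to 2210 in WT livers. Of 6 macrophage markers, 1 rose (Cd5l at 0.43) and 2 fell (Vsig4 at -0.85 and Clec4f at -0.22). Their sums were 3120 to 3540 in Ogg1-/- livers and 3120 to 4090 in WT livers. Without Ogg1-/- chow replicate 1, Marco (0.22, limma adjusted p = 0.045) and Cd68 (0.31, limma adjusted p = 0.0388) rose too, where 30.6% of all genes passed. The 5 cholangiocyte markers (sums of 404 to 468 in Ogg1-/- livers and 337 to 471 in WT livers, 2 of the 5 dim) and the 6 leukocyte markers (337 to 415 in Ogg1-/- livers and 322 to 417 in WT livers, 3 of the 6 dim) did not pass. The part of these cells in the transferase differences was not tested.

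On chow, the second comparison of the design, Gstt2 was the only 1 of the 48 transferases (2.08%) that passed, against 0.617% of all genes. Its signal was 9.41, 9.71 and 9.88 in Ogg1-/- livers, against 8.88, 9.17 and 9.33 in WT livers. All 6 Ogg1-/- livers lay above all 6 WT livers, as for 1.23% of all genes in either direction, and the difference was 0.54 (SE 0.11), a 1.46-fold rise with a limma adjusted p = 0.0157. With the ending of the sample description in the fit it was 0.50 (limma adjusted p = 0.497), and in a fit of the 12 chow livers alone the adjusted p was 0.0991. Without Ogg1-/- chow replicate 1 it was again the only member that passed (0.59, limma adjusted p = 0.0109), against 0.416% of all genes.

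Of the 3 genes lower in Ogg1-/- livers on the HFD, Ugt2b34 and Sult2a8 had chow differences that rested largely on 1 liver. Ugt2b34 on chow was 10.29, 12.23 and 12.52 in Ogg1-/- livers, against 12.32, 12.44 and 12.51 in WT livers. The lowest value was that of Ogg1-/- chow replicate 1, and the difference was -0.46 (limma adjusted p = 0.343) with this liver and -0.12 (limma adjusted p = 0.778) without it. For Sult2a8 it was -0.39 (limma adjusted p = 0.414) with this liver and -0.11 (limma adjusted p = 0.874) without it. Sult1a1 moved less, to -0.26 without this liver (limma adjusted p = 0.327).

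Whether the genotype difference itself depended on the diet was tested by the interaction. With all 24 arrays, 0 of the 48 genes passed in limma (0.00502% of all genes did), 4 had an unadjusted p under 0.05, and the smallest adjusted p was 0.624, for Sult1d1, at 0.44 (SE 0.17). Without Ogg1-/- chow replicate 1, the interaction of Ugt2b34 was -0.95 (SE 0.18, limma adjusted p = 0.0229), the only member that passed, against 1.96% of all genes. The other members had differences that were not shown to depend on the diet.

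The HFD itself was compared with chow within each genotype. In Ogg1-/- livers 11 of the 48 transferases (22.9%) passed, against 11.5% of all genes, with 3 higher (5.59% of all genes) and 8 lower (5.87% of all genes) on the HFD. Of these 11, 10 were among the 35 members that were not dim, whereas the share of all genes includes dim ones. The lower genes were 4 of the Ugt2 family and 4 glutathione transferases. With a fold of at least 1.5, 4 members passed, against 3.44% of all genes. The median absolute difference over the 48 genes was 0.18, and that over all genes 0.12.

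Of the 8 Ugt2 genes, 4 fell on the HFD in Ogg1-/- livers. Ugt2b1 had 11.16, 11.75 and 12.12 in Ogg1-/- livers on the HFD, against 11.57, 12.78 and 13.08 in Ogg1-/- livers on chow, a difference of -0.87 (SE 0.19, limma adjusted p = 0.00748). Ugt2b34, with the values given above, was at -0.93 (SE 0.25, limma adjusted p = 0.0239). Ugt2b35 had 9.18, 9.79 and 9.95 on the HFD, against 9.22, 10.66 and 10.94 on chow, a difference of -0.81 (SE 0.22, limma adjusted p = 0.0239). In each of these 3 genes the groups overlapped only through the lowest chow liver, which was Ogg1-/- chow replicate 1 in all 3 (11.57 for Ugt2b1). Ugt2b37 was at -0.46 (limma adjusted p = 0.0486), a call that 20 of the 24 analyses leaving out 1 array lost.

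Without Ogg1-/- chow replicate 1, 20 of the 48 transferases passed between the diets in Ogg1-/- livers, against 30.7% of all genes. The Ugt2 genes that passed were then 7 of 8, from -0.54 for Ugt2a3 to -1.27 for Ugt2b34, and Ugt2b36 was the exception at -0.01 (limma adjusted p = 0.953). Sult2a8 was then at -1.02 (limma adjusted p = 0.000187), against -0.74 (limma adjusted p = 0.0562) with all arrays. With the axis score in the fit instead, 10 of the 48 passed, against 5.66% of all genes, and Ugt2b1 (-0.52, limma adjusted p = 0.0214) was the only Ugt2 gene among them.

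**Figure D3:**
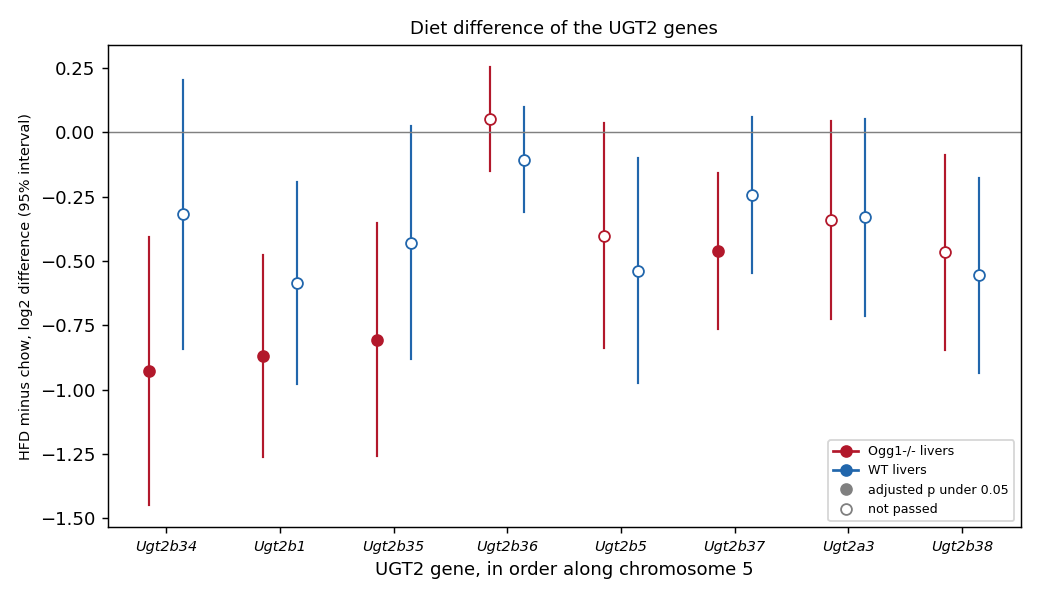
Log2 difference, HFD minus chow, of the 8 Ugt2 genes in their order along chromosome 5, in Ogg1-/- livers (red, left of each pair) and WT livers (blue, right of each pair), with the 95% interval (6 livers per group). Of the 8 genes, 4 passed in Ogg1-/- livers (filled) and none in WT livers, and Ugt2b36 lies near 0 in both genotypes.

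Of the glutathione genes, Gstt2 fell on the HFD in Ogg1-/- livers, with a log2 difference of -0.56 (SE 0.11, limma adjusted p = 0.00269), with every HFD liver below every chow liver (2.83% of all genes separated in this way). Gstp1, the pi-class enzyme that conjugates many electrophiles, had 13.52, 13.65 and 13.66 in Ogg1-/- livers on the HFD, against 13.84, 14.07 and 14.13 in Ogg1-/- livers on chow. These groups did not overlap either, and the difference was -0.43 (SE 0.11, limma adjusted p = 0.0146). The mu-class genes Gstm6 and Gstm1 fell by 0.48 (limma adjusted p = 0.00838) and 0.30 (limma adjusted p = 0.0352) on the log2 scale, and in both 5 of 6 HFD livers lay below every chow liver.

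The genes higher on the HFD in Ogg1-/- livers were Gstp3, Gstk1 and Sult1e1. Gstp3, another pi-class gene beside Gstp1 on chromosome 19, had 8.95, 9.30 and 9.61 on the HFD, against 8.04, 8.43 and 9.62 on chow, a difference of 0.71 (SE 0.21, limma adjusted p = 0.0335), with the opposite sign to its neighbour. The highest chow value, that of Ogg1-/- chow replicate 1, lay above every HFD liver. The call was lost in 8 of the 24 analyses leaving out 1 array, and with the axis score in the fit the difference was 0.44 (limma adjusted p = 0.223). Gstk1, the kappa-class enzyme of mitochondria and peroxisomes, had 12.91, 13.11 and 13.23 on the HFD, against 12.54, 12.85 and 12.91 on chow, a difference of 0.28 (SE 0.07, limma adjusted p = 0.0145). Sult1e1, the estrogen sulfotransferase, was among the dimmest probe sets and ran from 2.98 to 3.69 on the HFD and from 2.66 to 2.88 on chow, a difference of 0.46 (SE 0.11, limma adjusted p = 0.0136) near the lower end of the signal range.

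In WT livers, Gstp1 was the only 1 of the 48 transferases (2.08%) that passed between the diets, against 1.11% of all genes. It had a median of 13.41 and a highest value of 13.84 in WT livers on the HFD, against 13.66, 13.85 and 14.09 in WT livers on chow, a difference of -0.44 (SE 0.11, limma adjusted p = 0.0437), and 4 of 6 HFD livers lay below every chow liver. Leaving out 1 array at a time, 20 of 24 such analyses lost this call. The different ending of the sample description, on all 6 WT chow livers and 1 of 6 WT HFD livers, nearly coincides with the diet in WT livers, and with it in the fit Gstp1 was at -0.42 (limma adjusted p = 0.594).

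Although few members passed, 14 of the 48 (29.2%) had an unadjusted p under 0.05 between the diets in WT livers, against 13.5% of all genes, and in 5 (10.4%) the HFD and chow livers did not overlap, against 2.37% of all genes. Those 5 were Gstk1, higher on the HFD, and Gsta4, Gstm6, Ugt2b1 and Ugt2b34, lower on the HFD. The unadjusted share was 45.8% between the diets in Ogg1-/- livers, against 28.8% of all genes. Between the genotypes it was below that of all genes, at 31.2% against 35.9% on the HFD and 10.4% against 21.1% on chow. Gsta4, which conjugates the lipid peroxidation product 4-hydroxynonenal, had 10.28, 10.77 and 11.16 in WT livers on the HFD, against 11.21, 11.36 and 11.46 in WT livers on chow, a difference of -0.67 (SE 0.19, limma adjusted p = 0.113). Ugt2b1 had 11.90, 12.21 and 12.50 on the HFD, against 12.65, 12.81 and 12.95 on chow, a difference of -0.59 (SE 0.19, limma adjusted p = 0.16). Both passed without Ogg1-/- chow replicate 1 (limma adjusted p = 0.0193 for Gsta4 and 0.0266 for Ugt2b1), as did Gstm6, Gstt2 and Gstp1, 5 members in all, against 2.24% of all genes. The label ending nearly coincides with the diet in WT livers, and with it in the fit of all arrays 0 of the 48 passed between the diets there.

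A total of 12 probe sets named several genes of these families and were kept apart, because their signal cannot be assigned to 1 gene. The 4 alpha-class probe sets among them, each naming 4 genes, moved most: in WT livers all 4 fell on the HFD, by 1.33 to 1.39 on the log2 scale (limma adjusted p = 0.0132 to 0.0296), with no overlap between the diets. In Ogg1-/- livers they were at -0.51 to -0.54 and did not pass, and the interaction did not pass either (0.81 to 0.85, smallest adjusted p = 0.698). With the label ending in the fit, the 4 were at -0.36 to -0.47 in WT livers and did not pass. Without WT HFD replicates 2 and 3 they were at -1.12 to -1.18 and did not pass either (limma adjusted p = 0.0615 to 0.12). Their values ran nearly in parallel over the livers, so the 4 are not independent results. The 2 pi-class probe sets fell on the HFD in both genotypes, at -0.62 and -0.63 in Ogg1-/- livers and -0.71 in WT livers. With the label ending in the fit, both were at -0.53 in WT livers and did not pass (limma adjusted p = 0.665 and 0.668). Nor did they pass in a fit of the WT livers alone (limma adjusted p = 0.0962 and 0.103). The Ugt1 probe set differed by 0.03 between the genotypes on the HFD and by -0.14 and -0.16 between the diets in Ogg1-/- and WT livers, and did not pass.

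Conjugation depends on the supply of glutathione, UDP-glucuronic acid and PAPS, and 14 genes of this supply were measured. On the HFD, 5 rose and 4 fell in Ogg1-/- livers relative to WT livers, where 11.9% of all genes rose and 11.8% fell. Both PAPS synthases fell: Papss1 had 6.10, 6.27 and 6.45 in Ogg1-/- livers, against 6.60, 7.03 and 7.32 in WT livers, a difference of -0.73 (SE 0.11, limma adjusted p = 0.000588). Papss2 had 9.92, 10.56 and 10.74 in Ogg1-/- livers, against 10.84, 11.15 and 11.33 in WT livers, a difference of -0.65 (SE 0.22, limma adjusted p = 0.0396). For both genes the genotypes did not overlap, as for 15.4% of all genes in either direction.

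On chow, Papss1 was again lower in every Ogg1-/- liver (5.81, 6.03 and 6.40) than in any WT liver (6.57, 6.70 and 6.98). The difference was -0.69 (SE 0.11, limma adjusted p = 0.00142), and 1.23% of all genes separated on chow, in either direction. Papss2 on chow was at -0.60 (limma adjusted p = 0.176), with 4 of 6 Ogg1-/- livers below every WT liver, and at -0.36 (limma adjusted p = 0.416) without Ogg1-/- chow replicate 1. With the ending of the sample description in the fit, Papss1 on chow was at -0.30 (limma adjusted p = 0.646). Papss1 and Gstt2 were thus the conjugation genes that passed between the genotypes on both diets, together with the sulfatase Arsa described below.

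**Figure D4:**
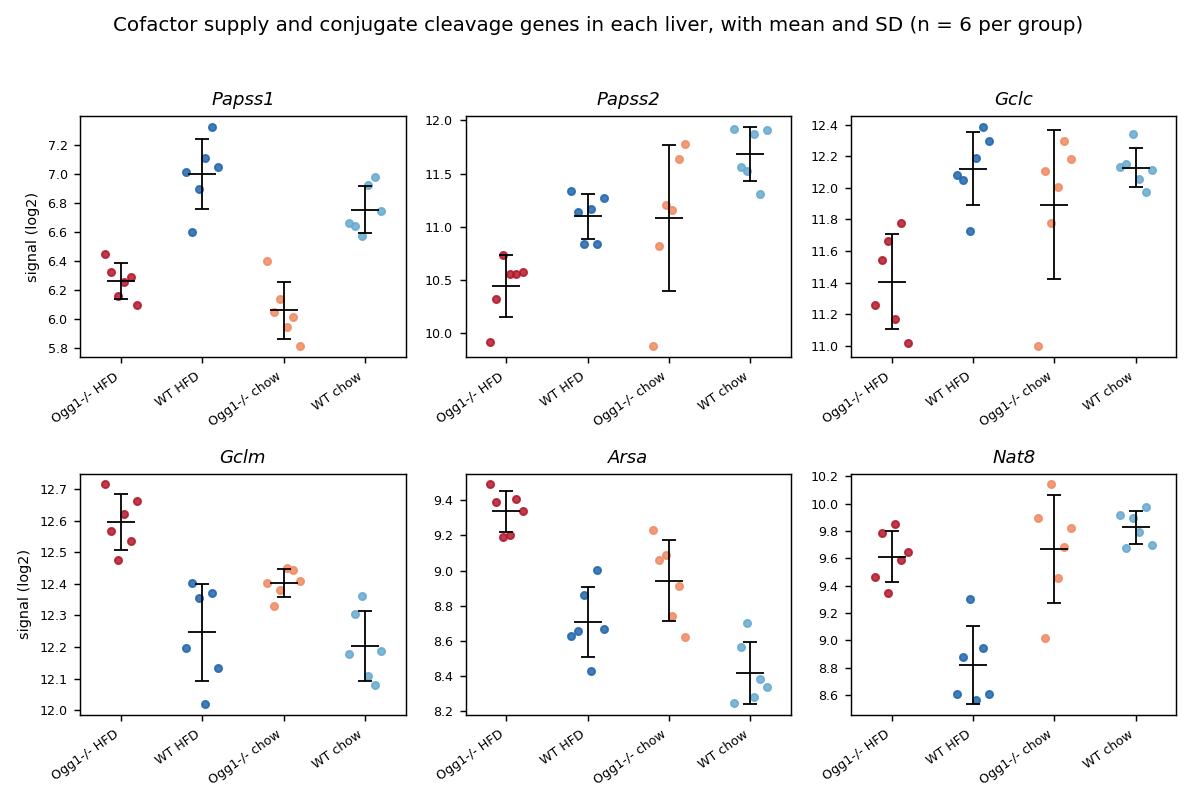
Signal (log2) of 4 genes that supply PAPS or glutathione (Papss1, Papss2, Gclc, Gclm), of the lysosomal sulfatase Arsa and of Nat8, which acetylates cysteine conjugates. Points are the 24 livers, with the group mean and SD (n = 6 per group). The vertical scale differs between the genes. Papss1 lies lower in all Ogg1-/- livers than in any WT liver on both diets, and Nat8 lies lower in all WT livers on the HFD than in any WT liver on chow.

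The 2 subunits of glutamate-cysteine ligase, which makes the first step of glutathione synthesis, moved in opposite directions on the HFD. Gclc, the catalytic subunit, had 11.02, 11.40 and 11.78 in Ogg1-/- livers, against 11.72, 12.14 and 12.39 in WT livers, a difference of -0.72 (SE 0.17, limma adjusted p = 0.00629). Gclm, the modifier subunit, had 12.47, 12.60 and 12.72 in Ogg1-/- livers, against 12.02, 12.28 and 12.40 in WT livers, a difference of 0.35 (SE 0.07, limma adjusted p = 0.00247). For Gclm the groups did not overlap, and for Gclc 5 of 6 Ogg1-/- livers lay below every WT liver.

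The other cofactor genes that passed on the HFD were Bpnt1 at 0.38, Slc26a1 at 0.30, Slc35d1 at 0.29 and Gsr, the glutathione reductase, at 0.28, all higher in Ogg1-/- livers, and Slc35b3, a PAPS transporter of the Golgi, at -0.40. Ugdh and Ugp2, which make UDP-glucuronic acid and its precursor, were at -0.25 and -0.29 and did not pass. Without Ogg1-/- chow replicate 1, Ugp2 passed (limma adjusted p = 0.0462). Slc35b2 (0.32, limma adjusted p = 0.00373) and Bpnt2 (-0.28, limma adjusted p = 0.0172) of the same list then passed too. On chow only Papss1 of the 14 passed, as did 0.617% of all genes.

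Of 7 genes listed under the cleavage and onward processing of conjugates, 3 rose in Ogg1-/- livers on the HFD, as did 11.9% of all genes. Whether these 7 act on the products of the transferases measured here was not tested. Arsa, a lysosomal sulfatase, had 9.19, 9.36 and 9.49 in Ogg1-/- livers, against a median of 8.66 in WT livers, all of which lay below every Ogg1-/- liver, a difference of 0.63 (SE 0.11, limma adjusted p = 0.00126), and it rose on chow as well, by 0.52 (limma adjusted p = 0.0212), a call that was lost without Ogg1-/- chow replicate 1 (0.47, limma adjusted p = 0.0551). Nat8, which acetylates cysteine conjugates to mercapturic acids, had 9.35, 9.62 and 9.85 in Ogg1-/- livers, against 8.57, 8.74 and 9.30 in WT livers, a difference of 0.79 (SE 0.15, limma adjusted p = 0.00203). Nat8 was the conjugation gene with the clearest diet response in WT livers, where it ran from 8.57 to 9.30 on the HFD and from 9.68 to 9.97 on chow, a difference of -1.01 (SE 0.15, limma adjusted p = 0.000665), or -0.88 (limma adjusted p = 0.291) with the label ending in the fit.

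In Ogg1-/- livers Nat8 differed by -0.06 between the diets (limma adjusted p = 0.86). Its interaction was 0.95 (SE 0.21) and did not pass with all 24 arrays (limma adjusted p = 0.365), like that of the other 6 genes of its list. Without Ogg1-/- chow replicate 1 it passed, at 0.997 (SE 0.21, limma adjusted p = 0.0277), as did Ggt6, at 0.59 (limma adjusted p = 0.0346). Ggt6 also rose in Ogg1-/- livers on the HFD, at 0.53 (limma adjusted p = 0.00226).

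Of 12 measured regulators of these genes, 2 rose and 2 fell in Ogg1-/- livers on the HFD, where 23.7% of all genes passed in either direction. Rxra, the partner of many nuclear receptors, rose by 0.48 (limma adjusted p = 0.00487) and Keap1, the inhibitor of NRF2, by 0.27 (limma adjusted p = 0.0331) on the log2 scale. Ahr, the dioxin receptor, was at -0.44 (limma adjusted p = 0.02) and Ppara at -0.37 (limma adjusted p = 0.0456). Without Ogg1-/- chow replicate 1, Nfe2l2, which encodes NRF2, also passed (-0.42, limma adjusted p = 0.0414), against 30.6% of all genes. So did Arnt (-0.30, limma adjusted p = 0.032) and Nr1h4 (-0.30, limma adjusted p = 0.0402). The Ppara interaction then passed as well (-0.66, limma adjusted p = 0.0339), against 1.96% of all genes. Of 8 NRF2 target genes outside the families, 1 rose and 1 fell, and these were Gclm and Gclc, described above. On chow 0 of these 12 regulators and 0 of these 8 targets passed in limma.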

How the data were processed

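Total RNA from 24 livers was hybridised to Affymetrix Mouse Gene ST arrays. The values that the authors deposited are log2 signals, 1 per probe set, between 1.81 and 14.8. The submitters' processing notes name RMA, whereas the methods also name GC-RMA; the settings and build are not given in the sources used here. No further normalization was applied.

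With limma 3.58.1 in R 4.3.3 (lmFit, contrasts.fit, eBayes), 1 linear model with a mean for each of the 4 groups was fitted to all 35556 probe sets, and p-values were adjusted over them (Benjamini-Hochberg). The platform annotation gives 1 symbol for 21789 probe sets and several for 1621, and 12146 are unnamed here, so some genes are not reported. The precision is limited by the 6 arrays per group; each array is a separate mouse. Genes named are the members that passed, up to the 10 largest rises and 10 largest falls between genotypes on the HFD and 6 of each elsewhere, plus the brightest member of each enzyme family; Ugt2 neighbours, Gsta4, Mgst3, Sult1b1 and members passing without 1 array were added after their values were seen. From the other lists, members that passed with a fold of at least 1.5 between genotypes were named, and the others after their values were seen. The members and lists were chosen with earlier results of these data known. The fit was tested on simulated data. Replicate numbers of the labels did not pair the samples. Promoters were searched with Python 3.11.15.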

Additional observations from a re-analysis of the deposited data

Results flagged for a closer look

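A liver was marked where its gap to the nearest other liver of its group took up more of the group's range than the 95% critical share of Dixon's test. Of 92 groups examined, 9 held such a liver, and chance marks about 1 in 20 groups. Ogg1-/- chow replicate 1 was the lowest of its group in 5 of the 9: Ugt2b34 (10.29), Sult2a8 (10.55), Ugt2b35 (9.22), Gstk1 (12.54) and Gstz1 (11.36). The others were Ogg1-/- chow replicate 2 for Gstp1 (13.84), Ogg1-/- HFD replicate 5 for Sult5a1, a sulfotransferase of unknown substrate (5.88), WT chow replicate 5 for Gsta3 (13.29) and WT chow replicate 4 for Gstt1 (12.40).

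Probe sets that name several genes lie outside the comparisons of single genes, and 6 of them passed between the diets. The 2 pi-class probe sets were at -0.63 and -0.62 in Ogg1-/- livers and at -0.71 and -0.71 in WT livers, and the 4 alpha-class probe sets were at -1.38, -1.35, -1.33 and -1.39 in WT livers. None of the WT calls held with the label ending in the fit.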

How the results depend on the processing

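No called difference of a member, of a gene of the other lists or of a probe set naming several genes reversed under an alternative. Under 13 alternatives and 24 analyses that each left out 1 array, the 7 members that passed between the genotypes on the HFD became 15 with array weights, 2 with a fold of at least 1.5 required and 0 with the axis covariate (4 to 12 with 1 array left out; 12 without Ogg1-/- chow replicate 1). The 1 on chow became 0 in a separate fit, by the methods' t-test, with the fold threshold and with the label ending as a covariate (0 to 2 with 1 array left out). The 11 between the diets in Ogg1-/- livers became 19 with array weights, 3 in a separate fit, 2 by the methods' t-test and 4 with the fold threshold (6 to 20 with 1 array left out, the highest without Ogg1-/- chow replicate 1). The 1 in WT livers became 3 with the dim filter, 8 with array weights, 3 in a separate fit, 2 by the methods' t-test, 2 with the mean of probe sets, 0 with the fold threshold, 4 with the axis covariate and 0 with the label ending (0 to 5 with 1 array left out). The interaction gave 0 to 1 with 1 array left out. The Ogg1 probe set on chow was at -0.54, short of a 1.5-fold change, and at -0.52 (limma adjusted p = 0.31) with the label ending. In Ogg1-/- against WT livers on the HFD, Gsto1, Gstt2, Sult1a1 and Ugt2b34 passed in all 24 analyses with 1 array left out, Sult2a8 in 20, Gstt3 in 17 and Mgst1 in 14. Of the other named genes, Papss2 passed in 16, Gsr in 19, Keap1 in 18, Ahr in 22, Ppara in 11, and Papss1, Gclc, Gclm, Arsa, Nat8, Ggt6, Rxra, Bpnt1, Slc26a1, Slc35d1 and Slc35b3 in all 24. With the axis covariate, Papss2 was at -0.05 (limma adjusted p = 0.845). Gclc at -0.37 (limma adjusted p = 0.173) and Slc35b3 at -0.15 (limma adjusted p = 0.379) did not pass with it. Nor did Rxra, Bpnt1, Slc26a1, Gsr, Keap1, Ahr and Ppara, whereas Papss1, Slc35d1, Gclm, Arsa, Ggt6 and Nat8 still passed on the HFD. Of the endothelial, stellate and macrophage markers that had passed, only Vsig4 still did. Without WT HFD replicates 2 and 3, Mgst1 (limma adjusted p = 0.0673) and Papss2 (limma adjusted p = 0.0605) did not pass between the genotypes on the HFD. Nor did Keap1 (limma adjusted p = 0.0578) and Ppara (limma adjusted p = 0.0725). The cause of these changes was not tested, beyond the smaller groups and stricter rules themselves.

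The replicate numbers did not pair the samples: over 36 pairs of same-numbered livers the correlation of deviations ran from -0.27 to 0.43, with a median of -0.03. With the replicate number as a block, Mgst1 between the genotypes on the HFD (0.16, limma adjusted p = 0.0651), Ugt2b37 between the diets in Ogg1-/- livers (-0.46, limma adjusted p = 0.0518) and Gstp1 between the diets in WT livers (-0.44, limma adjusted p = 0.0563) no longer passed, and no other named call was lost.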
